A study of Rattus norvegicus with 18 samples.

Results

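Striated muscle sarcomere genes were followed through 9 retina and 9 RPE/choroid libraries of rat. The set holds 40 genes of the contractile apparatus of muscle and of its calcium and energy supply, listed by symbol because extraocular muscle lies near the choroid. Of these, 35 had an identifier in both count tables, which held 32285 genes in retina and 32552 in RPE/choroid. Myh1 and Myh4 shared 1 identifier, written Myh1/Myh4 here, so that 34 distinct identifiers were measured. By role, 11 identifiers were fast fibre genes, 7 were slow fibre genes, 3 were developmental genes and 13 were pan-striated, that is, used in striated muscle of several kinds. Of the 5 genes without an identifier, Tcap was at 0 in all 9 retina libraries, Myot had 1 count in 2 retina libraries, and Ttn, Myh2 and Myh13 were matched to no entry and were not analysed here.

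Fischer 344 rats, all females in the study's methods, were compared in 3 groups per tissue, with 3 libraries a group. Young rats were 4 months old and untreated, aged rats were 24 months old and untreated, and 8-AG rats were aged rats that drank 8-aminoguanine (8-AG, an inhibitor of purine nucleoside phosphorylase) at 5 mg/kg per day for 8 weeks from 22 months. The neural retina was lifted out of the opened eye first, and RPE/choroid (the retinal pigment epithelium with the vascular layer behind it) was then rinsed from the remaining eye cup with lysis reagent. The RPE/choroid RNA was scarce and its libraries were enriched for full-length transcripts, so levels were compared only within a tissue. For the 8-AG retina libraries the molecule label reads total RNA, and for the other libraries polyA RNA. Retina libraries held 12283458 to 15644346 counts and RPE/choroid libraries 28573828 to 48203050. Young RPE/choroid libraries 1 and 2 carry the same animal-like number on their labels, as do aged libraries 1 and 2, and within each pair the numbers are followed by L in 1 library and R in the other. Beyond these letters the labels do not say whether each pair came from both eyes of 1 rat, and nothing states that the libraries of a group are separate animals, so p-values measure only the spread between these libraries.

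In a sarcomere, myosin heavy chains of the thick filament pull on actin thin filaments, and the troponin complex (troponin C binds calcium, troponin I inhibits, troponin T ties the complex to tropomyosin) switches the pull on. Fast and slow fibres build the same parts from different genes. Embryonic and neonatal myosins are made in developing muscle and persist in adult extraocular muscle, which moves the eye and inserts on the sclera.

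To show what the genes share at their starts, the 250 bases before the annotated start of 6 genes were taken from RefSeq (build GRCr8, not the build of the counts). They stand for thin filament actin, creatine kinase, a fast, an embryonic and a slow myosin, and Speg, the member with the lowest adjusted p in retina. Capitals mark matches to the E-box (CANNTG, a site of myogenic and other factors), the MEF2 site and the CArG box of serum response factor, searched on both strands, with no match overlapping another in these windows.
Acta1 (chr19:68784195-68784444, minus strand): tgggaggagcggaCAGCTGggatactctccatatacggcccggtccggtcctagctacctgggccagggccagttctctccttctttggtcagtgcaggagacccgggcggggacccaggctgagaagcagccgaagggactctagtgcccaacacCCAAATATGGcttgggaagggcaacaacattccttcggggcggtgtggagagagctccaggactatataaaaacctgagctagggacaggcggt
Ckm (chr1:88189211-88189460, plus strand): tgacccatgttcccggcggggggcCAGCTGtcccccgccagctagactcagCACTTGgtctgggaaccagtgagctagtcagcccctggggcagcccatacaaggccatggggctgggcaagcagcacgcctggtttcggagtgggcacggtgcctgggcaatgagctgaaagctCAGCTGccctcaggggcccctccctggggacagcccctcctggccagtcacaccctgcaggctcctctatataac
Myh4 (chr10:52421898-52422147, plus strand): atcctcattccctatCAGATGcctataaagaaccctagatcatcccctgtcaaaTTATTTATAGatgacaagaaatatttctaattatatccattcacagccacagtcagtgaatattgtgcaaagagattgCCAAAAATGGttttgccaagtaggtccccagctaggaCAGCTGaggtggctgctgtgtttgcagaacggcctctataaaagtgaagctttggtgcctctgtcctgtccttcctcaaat
Myh3 (chr10:52268935-52269184, plus strand): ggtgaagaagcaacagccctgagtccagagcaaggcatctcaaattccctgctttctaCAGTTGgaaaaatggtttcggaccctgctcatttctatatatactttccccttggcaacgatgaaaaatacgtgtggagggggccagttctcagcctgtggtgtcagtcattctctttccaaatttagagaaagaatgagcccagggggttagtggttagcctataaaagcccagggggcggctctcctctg
Myh7 (chr15:32438195-32438444, minus strand): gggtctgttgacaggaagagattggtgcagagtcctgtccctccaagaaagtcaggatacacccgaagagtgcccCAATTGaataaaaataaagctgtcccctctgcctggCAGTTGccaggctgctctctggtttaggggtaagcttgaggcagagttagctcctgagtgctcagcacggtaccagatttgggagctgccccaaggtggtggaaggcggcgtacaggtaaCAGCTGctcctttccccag
Speg (chr9:84314137-84314386, plus strand): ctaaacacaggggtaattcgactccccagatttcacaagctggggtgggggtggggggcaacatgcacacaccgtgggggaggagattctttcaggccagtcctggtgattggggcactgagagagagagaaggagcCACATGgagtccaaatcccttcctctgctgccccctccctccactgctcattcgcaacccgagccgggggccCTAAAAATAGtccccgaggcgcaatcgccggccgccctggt
Acta1 held 1 E-box and 1 CArG box, Ckm 3 E-boxes, Myh4 2 E-boxes with 1 MEF2 site and 1 CArG box, Myh3 1 E-box, Myh7 3 E-boxes and Speg 1 E-box and 1 MEF2 site. Speg had a second annotated start (chr9:84339162-84339411), whose window held 1 E-box and 0 MEF2 sites, and the window printed was chosen for its MEF2 site. Over the 36 windows of the 34 member genes in the table, an E-box was in 29 (80.6%), against 65.5% of all 33469 windows. A MEF2 site was in 6 (16.7%, against 2.96%) and a CArG box in 4 (11.1%, against 1.5%). The MEF2 and CArG matches lay before fast, slow and pan-striated genes (Acta1, Ldb3, Myh1, Myh4, Myl1, Myl3, Myoz1, Speg and Ttn). A match is a run of letters, not a measured site.

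In RPE/choroid the sarcomere genes differed widely between libraries of the same group, and 1 library was far above the rest. The 34 identifiers took 0.0653% to 0.8401% of all counts in 8 libraries and 8.07% in 8-AG library 1. Summed over the 11 fast identifiers, the level in CPM (counts scaled to library size, with TMM factors) was 20.8, 3957 and 44.4 in young libraries 1, 2 and 3, 3435, 86.03 and 25.5 in aged libraries 1, 2 and 3, and 46923, 1918 and 32.04 in 8-AG libraries 1, 2 and 3. Young library 2, aged library 1 and 8-AG libraries 1 and 2 were thus rich in fast fibre genes, the other 5 libraries were poor, and each group held both kinds. 8-AG library 1 had the highest value of 33 of the 34 identifiers, the exception being Speg. For 25 identifiers these same 4 libraries were the 4 highest of the 9, and the others were Tnnc1, Tnni1, Tnnt1, Myh7, Mybpc1, Myh3, Tpm1, Tpm2 and Speg.

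**Figure D1:**
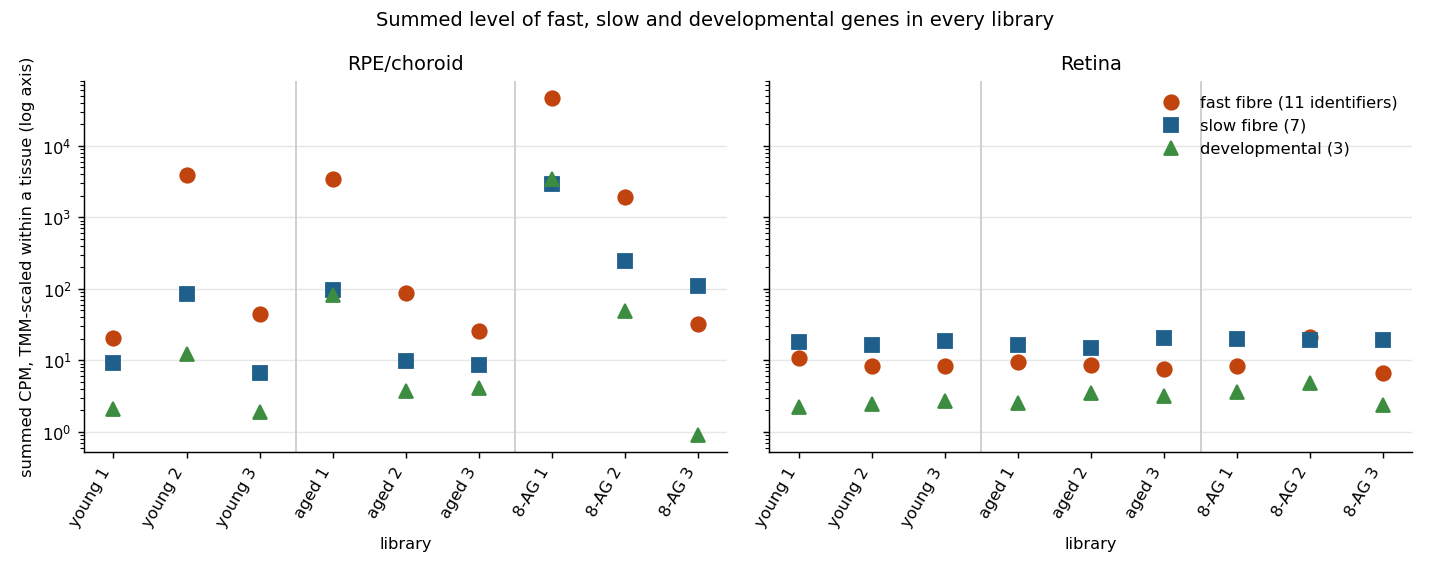
Summed CPM of fast, slow and developmental genes (log axis) in each library of RPE/choroid (left) and retina (right), 1 symbol for each library and list. Fast genes in RPE/choroid ran from 20.8 to 46923 CPM with rich and poor libraries in every group, and in retina from 6.61 to 21.5 CPM.

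The Myh1/Myh4 identifier, of fast myosin heavy chains, had 1.83, 979 and 6.94 CPM in young, 1135, 15.3 and 2.395 CPM in aged and 11735, 457 and 3.75 CPM in 8-AG libraries. Myosin heavy chain genes are close copies of each other, and how reads were split between them is uncertain. The fast troponin C gene Tnnc2 had 0.967, 448 and 2.91 CPM in young, 407, 8.31 and 0.978 CPM in aged and 5332, 251 and 3.27 CPM in 8-AG libraries. Tnni2, fast troponin I, had 1.37, 492 and 4.24 CPM in young, 397, 8.42 and 1.38 CPM in aged and 5498, 215 and 1.09 CPM in 8-AG libraries. Tnnt3, fast troponin T, had 2.03, 448 and 3.66 CPM in young, 369, 6.63 and 2.29 CPM in aged and 4548, 199 and 2.07 CPM in 8-AG libraries. All of them were high in the 4 rich libraries and low in the other 5, and the groups overlapped. Atp2a1, the fast calcium pump of the sarcoplasmic reticulum, had 1.07, 366 and 2.299 CPM in young, 306, 6.45 and 1.59 CPM in aged and 4644, 151 and 2.07 CPM in 8-AG libraries. Over the 9 libraries, the light chain genes Myl1 and Mylpf ranged from 3.402 to 6731 CPM and from 5.23 to 2583 CPM. The Z-disc genes Actn3 and Myoz1 ranged from 0.641 to 1760.1 CPM and from 1.18 to 1211 CPM. Mybpc2 (myosin-binding protein C) and Casq1 (calcium store) ranged from 0.767 to 1733 CPM and from 1.73 to 1147 CPM, so that every fast gene followed the same libraries.

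The slow fibre genes followed fewer libraries. Tnnc1, the troponin C of slow and cardiac muscle, had 0.8003, 1.05 and 1.17 CPM in young, 1.35, 2.06 and 1.65 CPM in aged and 312, 36.9 and 5.87 CPM in 8-AG libraries. Tnni1, slow troponin I, had 0.0667, 0.351 and 0.293 CPM in young, 2.03, 1.27 and 0.2699 CPM in aged and 182, 26.7 and 2.92 CPM in 8-AG libraries. For both genes every 8-AG library lay above every aged and every young library, including young library 2 and aged library 1, which were rich in fast genes. Among the members tested, Tpm2 also lay above every aged library in each 8-AG library, but not above every young one. How many of all genes separate the groups in this way was not counted, so the separation is described and not read as a result. Tnnt1, slow troponin T, had 2.07, 2.72 and 3.198 CPM in young, 2.19, 3.15 and 1.69 CPM in aged and 243.4, 32.5 and 1.701 CPM in 8-AG libraries. Myh7, the slow myosin heavy chain, had 5.94, 3.64 and 0.773 CPM in young, 3.97, 0.677 and 4.25 CPM in aged and 573, 70.3 and 1.09 CPM in 8-AG libraries. Both were high in 8-AG libraries 1 and 2, and in 8-AG library 3 they were within the range of the young and aged libraries. The slow light chain gene Myl3 had 0.2001, 0.674 and 0.334 CPM in young, 0.871, 0.412 and 0.472 CPM in aged and 49.7, 7.58 and 0.371 CPM in 8-AG libraries, and Myl2 had 0, 0.135 and 0.0209 CPM in young, 0.194, 0.0589 and 0 CPM in aged and 86.9, 9.58 and 0.0218 CPM in 8-AG libraries. Myl2 had 0 counts in young library 1 and aged library 3, which allows up to 0.105 CPM in either (counting error only). Mybpc1, listed as slow but also made in fast fibres, had 0.10, 76.8 and 0.815 CPM in young, 84.4, 2.003 and 0.2699 CPM in aged and 1453, 59.7 and 98.6 CPM in 8-AG libraries. It differed from the other slow genes in being high in young library 2, aged library 1 and 8-AG library 3 as well.

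Among the developmental genes, Myh3, the embryonic myosin heavy chain, had 0.2001, 2.13 and 1.05 CPM in young, 8.13, 2.36 and 0.371 CPM in aged and 2389, 23.6 and 0.349 CPM in 8-AG libraries. Myh8, the neonatal heavy chain, had 0.867, 1.64 and 0.397 CPM in young, 37.7, 0.707 and 0.405 CPM in aged and 555, 1.33 and 0.393 CPM in 8-AG libraries. Actc1, the cardiac alpha-actin also made in developing skeletal muscle, had 1.0, 8.601 and 0.418 CPM in young, 36.6, 0.707 and 3.34 CPM in aged and 484, 23.7 and 0.153 CPM in 8-AG libraries. All 3 were highest in 8-AG library 1, Myh8 and Actc1 were next highest in aged library 1, and 8-AG library 2 was high in Myh3 and Actc1 but not in Myh8.

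Among the pan-striated genes, Acta1, the skeletal alpha-actin whose start is shown above, had 5.03, 1221 and 6.88 CPM in young, 642, 15.99 and 10.5 CPM in aged and 12614, 697 and 24.8 CPM in 8-AG libraries. Ckm, the muscle creatine kinase that buffers ATP, had 1.43, 1188 and 5.62 CPM in young, 652, 13.4 and 1.86 CPM in aged and 10850.5, 435 and 8.66 CPM in 8-AG libraries. Mb, the oxygen-binding myoglobin, had 0.333, 27.6 and 0.732 CPM in young, 98.3, 1.41 and 0.405 CPM in aged and 1292, 63.5 and 0.218 CPM in 8-AG libraries. These genes were high in the 4 rich libraries, and the groups overlapped. Neb (nebulin, of the thin filament) ranged from 2.12 to 1178 CPM and the glycolytic enzyme Eno3 from 7.502 to 4214 CPM. The calcium channel genes of excitation-contraction coupling, Cacna1s and Ryr1, ranged from 0.393 to 349 CPM and from 0.412 to 124 CPM. The Z-disc genes Actn2 and Ldb3 ranged from 0.439 to 523 CPM and from 6.38 to 385 CPM.

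Des, Tpm1, Tpm2 and Speg, which smooth muscle or other cells also use, were present in every RPE/choroid library. Des, the intermediate filament desmin, had 111, 295 and 196 CPM in young, 257, 242.5 and 137 CPM in aged and 1821, 278 and 178 CPM in 8-AG libraries. Tpm1, a tropomyosin that lies along actin, had 365, 611.8 and 452 CPM in young, 388, 526 and 292 CPM in aged and 2348, 512 and 927 CPM in 8-AG libraries. Tpm2, another tropomyosin, had 127, 296 and 194 CPM in young, 169.9, 234 and 105 CPM in aged and 1174, 234 and 332 CPM in 8-AG libraries. Outside 8-AG library 1 these 3 genes differed much less between libraries than Acta1 or Ckm did. Speg, a kinase of striated muscle, had 18.04, 15.96 and 9.36 CPM in young, 23.9, 12.8 and 22 CPM in aged and 41.5, 12.1 and 56.3 CPM in 8-AG libraries, and was highest in 8-AG library 3, which was poor in fast fibre genes.

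**Figure D2:**
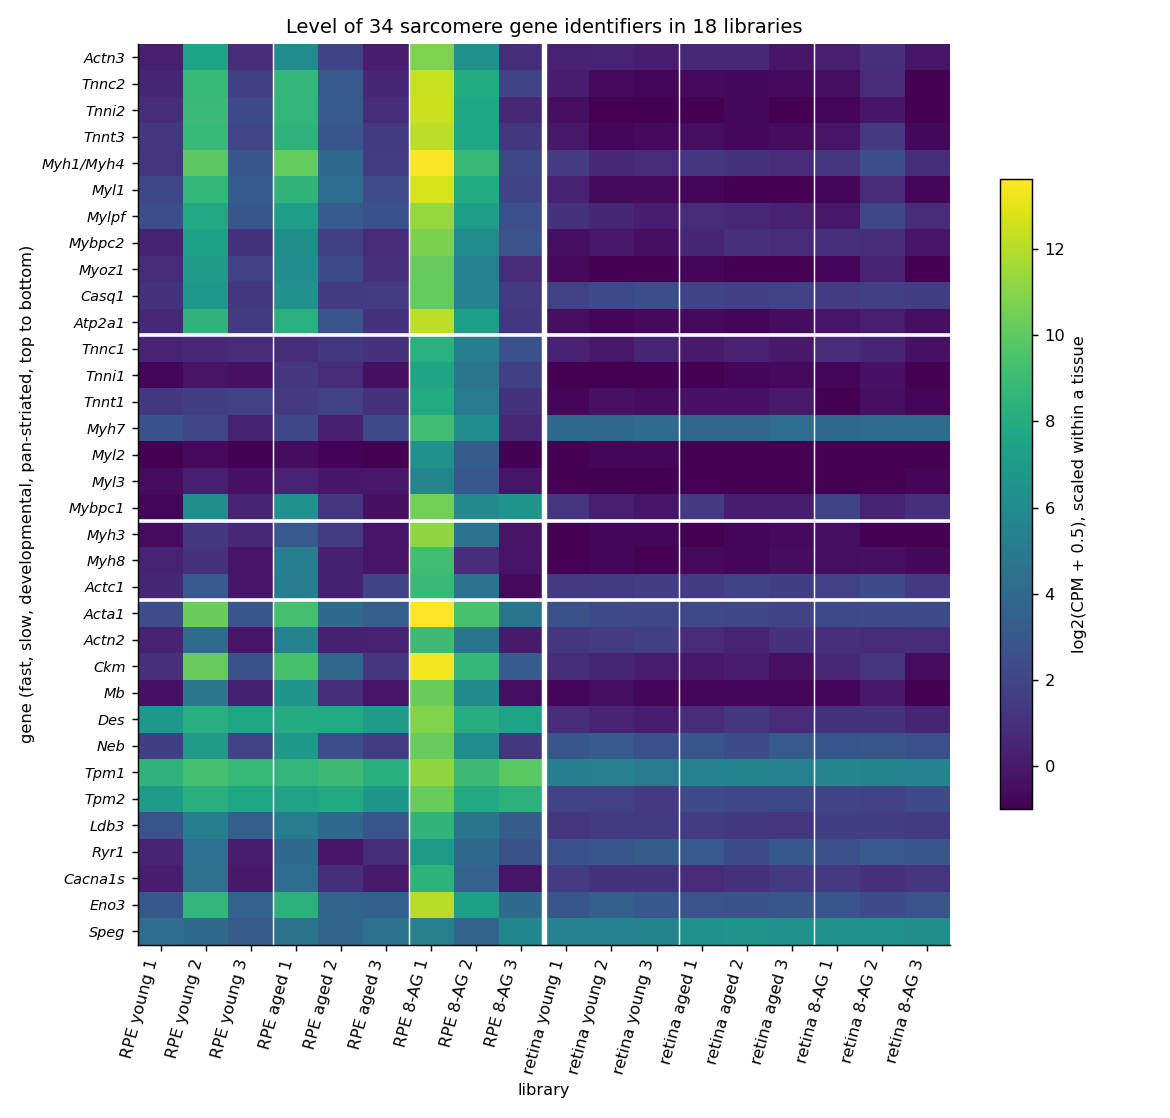
Level of each of the 34 identifiers as log2(CPM + 0.5), scaled within a tissue, in 9 RPE/choroid and 9 retina libraries. Fast and most pan-striated genes are bright in RPE young 2, aged 1, 8-AG 1 and 8-AG 2, Tnni1 and Myh7 in RPE 8-AG 1 and 8-AG 2, and Des, Tpm1 and Tpm2 in every RPE/choroid library.

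Composition was also read within a library, as shares of counts that are not corrected for gene length and are compared between libraries only. Of the counts of the 6 troponin genes, the slow Tnnc1, Tnni1 and Tnnt1 made up 0.296% in young library 2 (exact 95% Clopper-Pearson interval 0.251 to 0.347%, for counting error only) and 0.473% in aged library 1 (0.406 to 0.549%). In 8-AG library 1 the share was 4.58% (4.52 to 4.64%) and in 8-AG library 2 it was 12.6% (12.2 to 13.03%). None of these 4 intervals overlapped, and both 8-AG libraries lay above the young and the aged library. In the 5 poor libraries the share was 21.7 to 61.98%, on only 219 to 1013 troponin counts.

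The myosin heavy chains were divided in the same manner. Of the counts of Myh1/Myh4, Myh7, Myh3 and Myh8, the Myh1/Myh4 identifier held 99.2%, 95.8%, 76.9% and 82.7% in young library 2, aged library 1, 8-AG library 1 and 8-AG library 2. Slow Myh7 held 0.369%, 0.335%, 3.76% and 12.7% in that order, and embryonic Myh3 held 0.216%, 0.686%, 15.7% and 4.28%. Neonatal Myh8 held 0.167%, 3.18%, 3.64% and 0.241%. Embryonic myosin thus had its highest share of the 4 in 8-AG library 1 and slow myosin in 8-AG library 2. In the 5 poor libraries, on only 220 to 646 counts of these genes, Myh7 held 3.56 to 67.2% and Myh3 2.26 to 12.4%. Myh3 in young library 3 (11.4%), aged library 2 (12.4%), aged library 3 (5%) and 8-AG library 3 (6.25%) lay above 8-AG library 2.

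**Figure D3:**
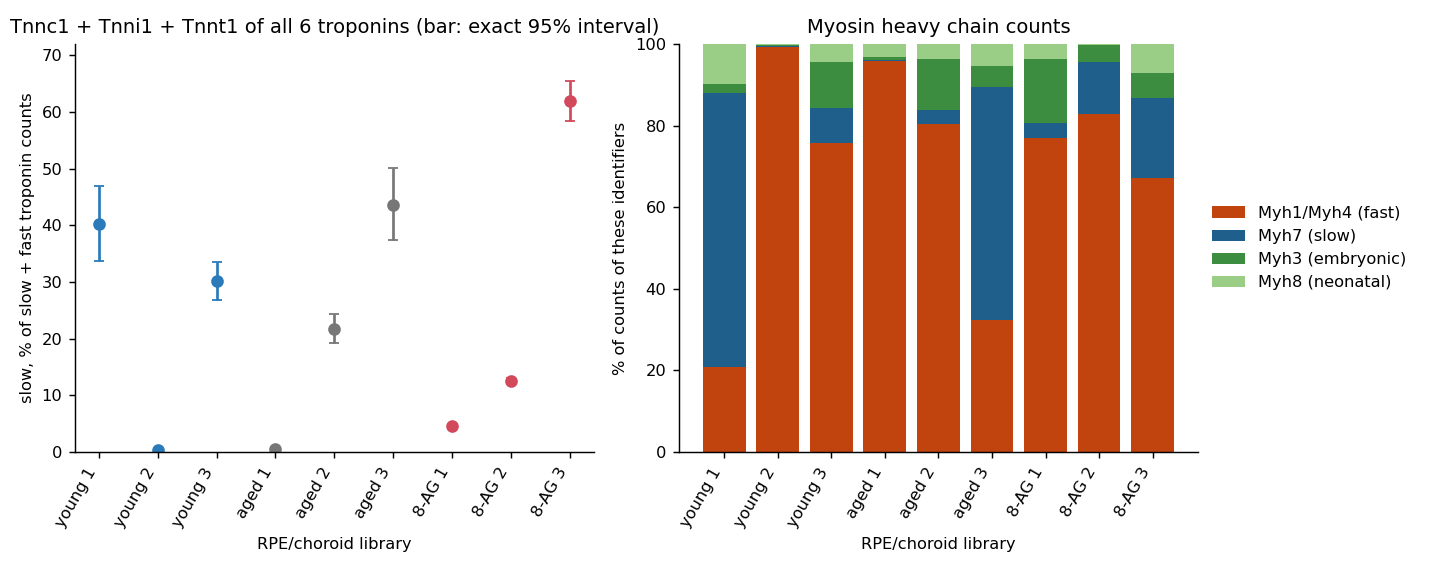
Left, slow troponins as a percentage of slow and fast troponin counts in each RPE/choroid library, with the exact 95% interval as bars; right, stacked bars of the percentage of myosin heavy chain counts from each identifier. The rich libraries young 2 and aged 1 hold 0.296% and 0.473% slow troponin, and 8-AG libraries 1 and 2 hold 4.58% and 12.6%.

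Counts were also set against those of Ckm in the same library, for young library 2, aged library 1, 8-AG library 1 and 8-AG library 2 in that order. There were 0.377, 0.625, 0.491 and 0.577 Tnnc2 counts and 0.115, 0.105, 0.112 and 0.0979 Myoz1 counts for each Ckm count. Mb, a gene of oxidative fibres, had 0.0232, 0.151, 0.119 and 0.146 counts for each Ckm count, lowest in young library 2. Tnnc1 had 0.000885, 0.00208, 0.0288 and 0.08499, and Myh3 had 0.00179, 0.0125, 0.2202 and 0.0544. The log2 ratio of summed fast to summed slow CPM was 5.53, 5.18, 4.02 and 2.98 in these libraries. In the poor libraries it was 1.18 to 3.16, but for 8-AG library 3, where it was -1.79. In that library Mybpc1 gave 98.6 of 111 slow CPM, and the sign turned to 0.33 as a difference of medians and 0.49 from genes of the same protein.

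RPE/choroid libraries that share a label number were far apart. Young library 2 held 190.5 times the summed fast CPM of young library 1, and aged library 1 held 39.9 times that of aged library 2. For the slow genes the ratios were 9.31 and 9.86.

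Markers of other tissues also differed between the RPE/choroid libraries. The 9 surface epithelium genes summed to 1875 CPM in 8-AG library 1, 272 CPM in 8-AG library 3 and 5.04 to 16.3 CPM in the others, with at most 1 of the 9 at 0 in a library. The 14 rod photoreceptor genes summed to 58572 CPM in 8-AG library 1 and 732 to 20819.5 CPM elsewhere. The 14 RPE genes, which mark the labelled tissue, were above 0 in every library and summed to 6278 CPM in 8-AG library 1 and 10458 to 20104 CPM elsewhere. The 14 smooth muscle and pericyte genes summed to 438 CPM and 1146 to 3447 CPM, so the library richest in sarcomere genes was the lowest in both RPE and smooth muscle genes. Endothelial genes summed to 692 to 7360 CPM in 8-AG libraries and 3819 to 8366 CPM in young and aged ones. Schwann cell genes summed to 129 to 1425 CPM and 691 to 1258 CPM, and adipocyte genes to 74.7 to 209 CPM and 60.9 to 205 CPM, in that order. The part of these differences in the sarcomere results was not tested. In bulk samples, fewer cells of a type and less RNA per cell cannot be told apart.

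With all libraries, 8-AG RPE/choroid stood above aged RPE/choroid for each of the 33 identifiers that passed the filter on low counts (Myl2 did not), with a median log2 fold change of 3.91 against 0.01 over the 16257 genes tested. The largest differences were those of Myh3 (7.86 ± 3.27, log2 fold change ± SE, 3 libraries a group), Myh7 (6.24 ± 2.2) and Tnnc1 (6.18 ± 1.6). By edgeR's quasi-likelihood test 0 identifiers reached an adjusted p under 0.05, where 0% of all genes did, and 6 had an unadjusted P under 0.05. By the study's rule, a fold over 1.5 with an unadjusted P under 0.05, these 6 were higher, beside 1.24% of all genes, and 0 were lower, beside 0.418%. They were Tnnc1, Tnni1 (5.94 ± 1.75), Myh7, Tnnt1 (5.35 ± 1.74), Myl3 (5.08 ± 1.71) and Tpm1 (1.69 ± 0.66), each with an edgeR adjusted p of 1.0. In edgeR 5 of the 6 slow genes tested passed the rule and 0 of the 11 fast genes did, although the fast genes had log2 fold changes of 3.47 to 4.8, with SE of 2.39 to 3.03. By the Wald test of DESeq2, 4 identifiers had an adjusted p under 0.05, where 0.252% of all genes did: Tnnc1 (adjusted p = 0.00192), Tnni1 (adjusted p = 0.00865), Myh7 (adjusted p = 0.0317) and Tnnt1 (adjusted p = 0.0326). By DESeq2 the count of 6 past the study's rule became 15, beside 2.63% of all genes, and these included 5 slow and 4 fast genes. When the libraries that share a label number were summed, it became 2 of 34 tested (Tnnc1 and Tnni1), beside 0.374% of all genes, while Tnnt1 (5.45 ± 2.31), Myh7 (6.1 ± 2.75), Myl3 (5.16 ± 2.24) and Tpm1 (1.79 ± 0.84) had log2 fold changes near those above with larger SE. When aged library 2 was omitted it became 1, and when aged library 3 was omitted it became 2. The median became 7.29 without aged library 1. Over all genes, an unadjusted P under 0.05 (edgeR, either direction, any fold) was reached by 274 of 16257 with all libraries. It was reached by 87 of 16760 without aged library 2 and 258 of 16657 without aged library 3.

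Without 8-AG library 1, most of the differences went and those of the slow genes stayed positive. The median over the 33 identifiers was then 0.01, with 17 higher and 16 lower. The fast genes ran from -0.74 to 0.87, and the 6 slow genes from 1.45 to 3.66. Tnnc1 was higher by 3.66 ± 0.80 (edgeR adjusted p = 0.925) and Tnni1 by 3.63 ± 1.18 (adjusted p = 0.925). These were the 2 identifiers past the study's rule in that fit, beside 1.62% of all genes. Myh7 (3.59 ± 1.62), Tnnt1 (2.86 ± 1.13) and Myl3 (2.75 ± 1.2) did not pass it. Ckm stood at -0.01 ± 2.47, Acta1 at 0.69 ± 2.1 and Myh8 at -3.91 ± 2.33.

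**Figure D4:**
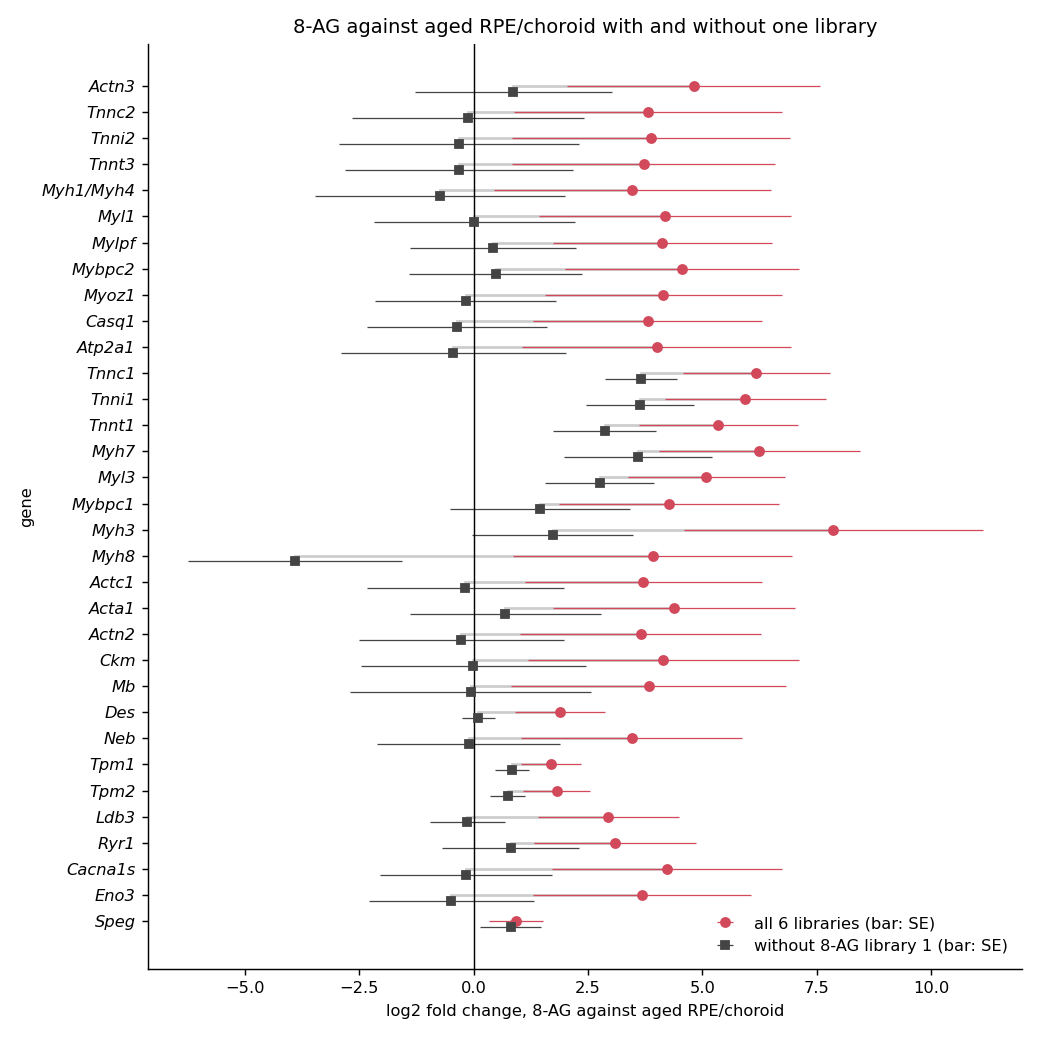
Log2 fold change (horizontal axis) of 8-AG against aged RPE/choroid for the 33 identifiers tested, with SE as bars, from all 6 libraries (circles) and without 8-AG library 1 (squares). The median was 3.91 with all libraries and 0.01 without that library, where Tnnc1 and Tnni1 stood at 3.66 and 3.63.

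8-AG against young RPE/choroid used the same 8-AG libraries, so it is given beside the comparison with aged and not as a separate test of it. The 33 identifiers tested were again higher, with a median of 3.54 against 0.02 over all 16215 genes tested, and the largest differences were those of Myh3 (9.49 ± 3.4), Tnni1 (8.19 ± 1.87) and Myh8 (7.6 ± 3.04). In edgeR 0 had an adjusted p under 0.05, beside 0% of all genes. At an unadjusted P under 0.05 there were 7, all past the study's rule upward, beside 1.71% of all genes, and 0 passed it downward, beside 0.278%. They were those 3 with Tnnc1 (6.88 ± 1.66), Myh7 (5.98 ± 2.2), Myl3 (5.57 ± 1.79) and Tnnt1 (5.13 ± 1.71). DESeq2 gave 5 with an adjusted p under 0.05 (Tnni1, Tnnc1, Myl3, Tnnt1 and Myh7), beside 0.432% of all genes. Without 8-AG library 1 the median was -0.11. Tnni1 (5.91 ± 1.16), Tnnc1 (4.4 ± 0.80) and Myl3 (3.28 ± 1.25) still passed the rule, beside 2.1% of all genes, and the 11 fast genes were all below 0. By DESeq2 the count of 7 past the rule became 14, beside 3.49% of all genes, and with at least 10 counts in every library 4, beside 1.4%. With libraries that share a label number summed it became 2 (Tnnc1 and Tnni1), beside 0.513% of all genes. It became 2 without young library 1 and 2 without young library 3, and the median became 8.11 without young library 2. Over all genes, an unadjusted P under 0.05 (edgeR, either direction, any fold) was reached by 341 of 16215 with all libraries. It was reached by 115 of 16644 without young library 1 and 156 of 16723 without young library 3.

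Aged against young RPE/choroid showed no common direction. Of 33 identifiers 13 were higher and 20 lower, with a median of -0.12 against 0.02 over 16047 genes. In edgeR 0 had an adjusted p under 0.05, beside 0% of all genes, and DESeq2 gave 0, beside 0.212%. The largest increases were those of Myh8 (3.75 ± 1.83), Tnni1 (2.29 ± 0.90) and Actc1 (2.03 ± 1.69), and the largest decreases those of Actn3 (-1.4 ± 2.35), Mybpc2 (-1.03 ± 2.26) and Myoz1 (-0.91 ± 2.02). Tnni1 was the 1 identifier with an unadjusted P under 0.05 and passed the study's rule upward, beside 0.717% of all genes, and 0 passed it downward, beside 0.636%. The Tnni1 call was lost when libraries that share a label number were summed, with Tnni1 at 1.88 ± 1.02, and 0 passed upward, beside 0.679% of all genes. It was also lost without any 1 of the young libraries 1, 2 and 3 or the aged libraries 1 and 2, and 2 identifiers passed without aged library 3. In that last fit 387 of 16401 genes had an edgeR unadjusted P under 0.05 in either direction, against 341 of 16047 with all libraries. Without young library 2 the median was 3.76 and without aged library 1 it was -3.39, so its sign differed with the rich library that was left in.

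Of 49 other striated muscle genes, 48 were tested in 8-AG against aged RPE/choroid. Of these 45 were higher and 7 passed the study's rule upward, beside 1.24% of all genes. The list summed to 1348, 1076 and 645 CPM in aged and 13089.9, 1339.9 and 852 CPM in 8-AG libraries, so that only 8-AG library 1 lay above all aged ones. In retina, where the fast genes summed to 6.61 to 21.5 CPM, this list summed to 869 to 940 CPM. Its sum is therefore not a measure of muscle alone. Without that library 27 of the 48 were higher and 0 passed the rule, beside 1.62% of all genes, and the median log2 fold change went from 3.36 to 0.10. With all libraries, 20 passed it by DESeq2, beside 2.63% of all genes. Myh15, a myosin heavy chain found in extraocular muscle, had the largest difference (7.94 ± 2.69), with 6416, 398 and 2 counts in the 8-AG libraries and at most 34 in any young or aged one. Like Myh7 it was high in 8-AG libraries 1 and 2. Tnni3, the cardiac troponin I, had the smallest (-0.63 ± 0.56). Sln, the calcium pump inhibitor sarcolipin, had the largest difference of the list in 8-AG against young (7.51 ± 2.82), with 9727 counts in 8-AG library 1 and at most 46 in the other RPE/choroid libraries. Of 13 neuromuscular junction and myogenic regulator genes, 9 were tested, 8 were higher and 1 passed the rule upward, beside the same 1.24% of all genes. Without 8-AG library 1, 2 of the 9 were higher and 0 passed it. They summed to 209.9 CPM in 8-AG library 1 and 16.8 to 59.9 CPM in the others.

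In retina the fast genes summed to 21.5 CPM in 8-AG library 2 and 6.61 to 10.7 CPM in the other 8 libraries. Between 3 and 7 of the 34 identifiers had 0 counts in a library, which allows up to 0.192 to 0.244 CPM depending on depth. In 8-AG library 2 Tnnt3 had 27 counts, Tnnc2 15, Myl1 15 and Mylpf 50, against at most 6, 8, 10 and 22 in any other retina library. Ckm had 23 counts there and 3 to 18 in the others. Speg, Tpm1 and Myh7 had the most counts of the set in each retina library. Myh7 held 13 to 18.4 CPM, and its near-copy Myh6 had 748 to 1295 counts, so how reads were split between them is uncertain.

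Speg rose with age in retina. Of the 19 identifiers tested, Speg and Mybpc2 had an adjusted p under 0.05, beside 14.5% of all genes, and Mybpc2 passed the filter on low counts only through the aged libraries. Speg had 44.7, 44.9 and 48.6 CPM in young, 85.1, 93.2 and 89.2 CPM in aged and 84.05, 83.9 and 74.1 CPM in 8-AG libraries. Every aged and every 8-AG library lay above every young one, with means of 46.1 ± 2.16, 89.2 ± 4.02 and 80.7 ± 5.68 CPM (SD, n = 3) in young, aged and 8-AG retina. Speg rose by 0.95 ± 0.06 on the log2 scale (edgeR adjusted p = 6.29e-05), and by 0.92 to 0.99 with any 1 library left out. Mybpc2 had only 3, 6 and 4 counts in young, 13, 23 and 18 in aged and 20, 16 and 6 in 8-AG libraries, with a difference between aged and young of 1.95 ± 0.40 (edgeR adjusted p = 0.0104). Since no young library reached the filter, Mybpc2 could be tested only because it was higher in aged libraries, and with at least 10 counts required in every library it was not tested. DESeq2 called the same pair, beside 13.1% of all genes, with Mybpc2 at an adjusted p of 0.0456.

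By the study's rule Speg was higher, beside 6.45% of all genes, and Actn2 was lower, beside 2.39%. Mybpc2 also met the rule upward, which is not read as a result, since it passed the filter only through the aged libraries. Without young library 1 the number past the rule went from these 3 to 6. In that fit 3649 of 14874 genes had an edgeR unadjusted P under 0.05 in either direction, against 4266 of 14588 with all libraries. Actn2 had 2.002, 2.41 and 2.904 CPM in young and 1.17, 0.828 and 1.66 CPM in aged retina, without overlap, a difference of -1.0 ± 0.31 (edgeR adjusted p = 0.0593). Eno3 (-0.46 ± 0.18, adjusted p = 0.118) and Casq1 (-0.41 ± 0.23, adjusted p = 0.269) had the next lowest values, and Des had the third highest (0.76 ± 0.36, adjusted p = 0.198). Tpm1 (36.98 ± 4.75 CPM in young and 44.1 ± 1.83 CPM in aged, SD, n = 3) and Tpm2 (2.9 ± 0.586 and 4.12 ± 0.426 CPM) were higher in each aged library than in any young one, with adjusted p of 0.118 and 0.159. For the separation of Tpm1, Tpm2, Actn2 and Speg, the share of all genes that separate in this way was not counted. Over the 19 identifiers the median log2 fold change was -0.08, against 0.00 over 14588 genes. The 14 rod genes summed to 37446 to 42426 CPM in aged and 59441 to 64618 CPM in young retina, with none at 0, and their part in the Speg result was not tested.

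**Figure D5:**
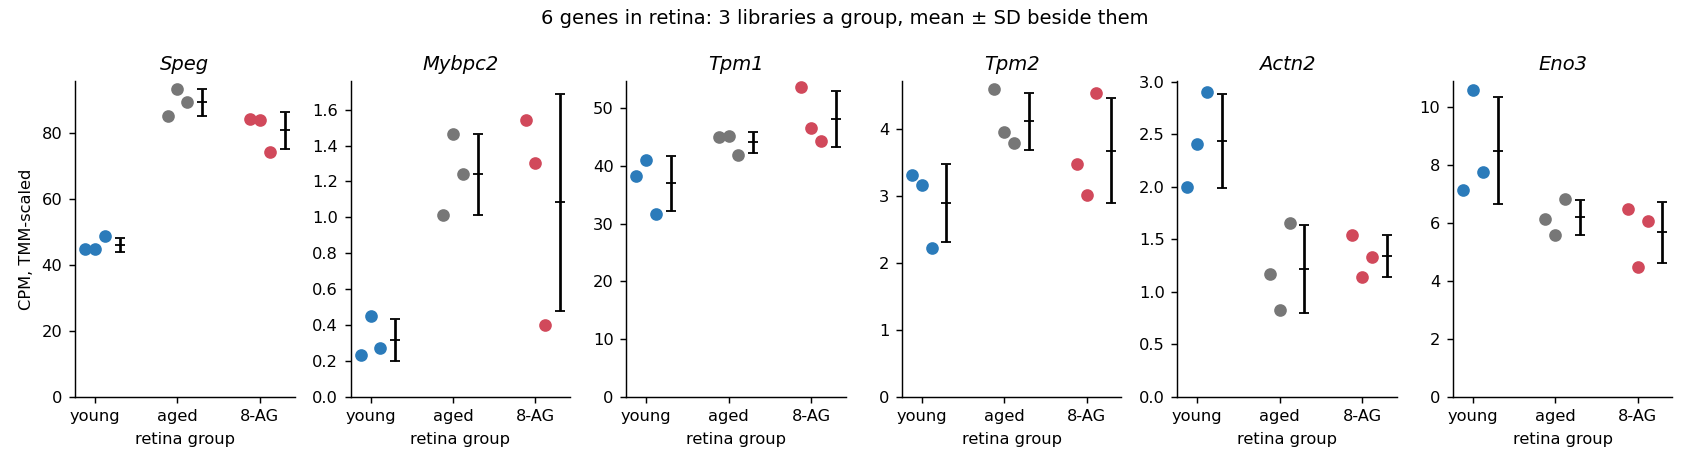
CPM (linear axes from 0) of 6 genes in 3 young, 3 aged and 3 8-AG retina libraries, each point a library, with mean ± SD beside the points. Mean Speg is 46.1 CPM in young, 89.2 CPM in aged and 80.7 CPM in 8-AG retina, and its young points lie below all others.

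Between 8-AG and aged retina the molecule label differs as well, so treatment and labelled preparation cannot be told apart. 8-AG against aged retina, which shares the aged libraries, gave 0 of 20 identifiers with an adjusted p under 0.05 in edgeR, beside 0.0205% of all genes, and 0 with an unadjusted P under 0.05. DESeq2 also gave 0, beside 0.123% of all genes. By the study's rule 0 were higher and 0 lower, beside 0.526% and 0.431% of all genes. The highest values were those of Mylpf (0.94 ± 0.70), Mybpc1 (0.80 ± 0.67) and Myh1/Myh4 (0.74 ± 0.48), and the lowest those of Casq1 (-0.24 ± 0.21), Mybpc2 (-0.23 ± 0.45) and Tpm2 (-0.16 ± 0.22). Without 8-AG library 2 Mylpf stood at -0.13. The count of 0 became 1 without aged library 1 or 8-AG library 1 and 2 without 8-AG library 3. Over all genes, an edgeR unadjusted P under 0.05 in either direction was reached by 537 of 14631 with all libraries. It was reached by 477 of 14919 without aged library 1, 990 of 14924 without 8-AG library 1 and 801 of 14747 without 8-AG library 3. The 9 surface epithelium genes summed to 14.3 to 32.5 CPM in 8-AG and 3.18 to 6.31 CPM in aged retina, with up to 2 at 0 in an aged library, and their part in these values was not tested. Speg was lower in each 8-AG library than in any aged one (-0.15 ± 0.08, adjusted p = 1.0). How many of all genes separate in this way was not counted here either.

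Whether a change differed between the tissues was tested with an interaction term in edgeR. For aging 0 of 32 identifiers had an adjusted p under 0.05 (lowest adjusted p = 0.699), beside 0.161% of all genes, and 0 had an unadjusted P under 0.05, beside 8.25%. For 8-AG against aged 0 of 33 had an adjusted p under 0.05 (lowest adjusted p = 1.0), beside 0% of all genes, and 5 had an unadjusted P under 0.05, beside 2.44%. The filter for this term took both tissues together, so identifiers nearly absent from retina entered through RPE/choroid. Tnnt1, among those 5 for 8-AG against aged, was not tested in retina alone. For such identifiers the term rests on few retina counts and is not read as a contrast of tissues. The 8-AG term also holds the difference in molecule label within retina. DESeq2 was not run for this term.

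Among other striated muscle genes, 3 of the 22 tested had an edgeR adjusted p under 0.05 in aged against young retina, beside 14.5% of all genes. That count is no higher than the share over all genes, so it is not read as a result about the list. Myom2, of the M-band, fell (-0.69 ± 0.12, adjusted p = 0.00426). Myh6, the cardiac alpha heavy chain, rose (0.44 ± 0.08, adjusted p = 0.00644), as did Pygm, the muscle glycogen phosphorylase (0.43 ± 0.12, adjusted p = 0.03902). How reads were split between Myh6 and Myh7 is uncertain.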

How the data were processed

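RNA-seq counts were used for 9 retina and 9 RPE/choroid libraries. For retina the authors deposited RSEM expected counts (estimated counts per gene), of which 11.5% were not whole numbers, and these were rounded. The authors' deposited signal table of TMM-normalized retina values was read only to pair identifiers with symbols. For RPE/choroid the authors deposited raw counts per gene, and identifiers were paired with symbols through the name column of their comparison tables. Atp2a1, Myh1, Pax7 and Krt14 were not named there and were paired by matching retina values. For Atp2a1 these were low, with group means of 0.142 to 0.435 CPM in retina. The deposited fold changes, p-values and normalized tables of the authors' own comparisons were not used. The submitters' processing notes name Bowtie2 2.1.0, RSEM 1.2.15, edgeR and Rnor_6.0, and which step used each is not given in the sources used here.

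Genes were filtered with filterByExpr, scaled with TMM and tested per comparison with edgeR 4.0.16 (robust quasi-likelihood fit, Benjamini-Hochberg adjustment over all genes tested, R 4.3.3). The SE of a log2 fold change is its size divided by the square root of F. DESeq2 1.42.0 was an alternative. Others were RLE size factors, unfiltered genes, a minimum of 10 counts per library, a single fit to a tissue's 9 libraries, a replicate block, sums of libraries with a shared label number, and omission of single libraries. Tables and figures used Python 3.11.15, pandas 2.3.3, SciPy 1.17.1 and matplotlib 3.10.9. The fits were tested on simulated data. Libraries were grouped by their labels, and no 2 agreed within sampling noise. Depth sets the level that 0 counts allow, taken as 3 counts. The members, the other gene lists and the alternatives were chosen with earlier results of these data known. Values in every library were given for Acta1, Ckm, Mb, the myosin heavy chains, the troponins, Atp2a1, Des, Tpm1 and Tpm2, and each comparison names the 3 largest increases, the 3 largest decreases and the members with an adjusted p under 0.05. Other lists name a gene at an end of the list or with an adjusted p under 0.05. Mybpc1, Myl2, Myl3, Actc1, Speg, Actn2 and Myoz1 outside these rules, and the retina counts of 8-AG library 2, were chosen after their values were seen.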

Additional observations from a re-analysis of the deposited data

How the results depend on the processing

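Of the alternative values computed for counts, medians, summed levels, fast to slow ratios and some of the members named in each comparison, 592 kept their direction and their side of the threshold or moved by less than the spread, 38 moved, 8 passed a threshold they had missed and 19 changed sign; the cause was not tested. By DESeq2 the members with an adjusted p under 0.05 numbered 4 in 8-AG against aged and 5 in 8-AG against young RPE/choroid, and those past the study's rule numbered 15 and 14. With at least 10 counts in every library, 4 members passed the rule in 8-AG against young. With libraries that share a label number summed, 0 passed in aged against young, 2 in 8-AG against aged and 2 in 8-AG against young, and with all 9 libraries in 1 fit 0 passed in aged against young. Without a filter 5 passed in retina aged against young and 2 in retina 8-AG against aged. The share of all genes past the rule was not computed without a filter or with all 9 libraries in 1 fit. These counts are therefore not read as results about the members.

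The replicate numbers 1 to 3 did not pair the libraries of different groups, since same-numbered libraries did not deviate together in every pair. This says nothing of libraries of 1 group that share an animal-like number. With the replicate block 0 members passed the rule in aged against young RPE/choroid, 10 in 8-AG against aged (3 slow and 3 fast genes among them), 2 in 8-AG against young and 1 in retina 8-AG against aged. The share of all genes past the rule was not computed for the block, so these counts are not read as results about the members.

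Omitting single libraries (leave-one-out), the members past the rule numbered 0 to 2 in aged against young RPE/choroid, 1 to 8 in 8-AG against aged, 2 to 10 in 8-AG against young, 3 to 6 in retina aged against young and 0 to 2 in retina 8-AG against aged. In the same order the medians ran from -3.39 to 3.76, 0.01402 to 7.29, -0.11 to 8.11, -0.11 to 0.0513 and -0.0171 to 0.19. Over all genes, those with an edgeR unadjusted P under 0.05 ran from 255 to 578, 87 to 734 and 115 to 1266 in RPE/choroid. In retina they ran from 3494 to 4562 and from 376 to 990, in either direction and at any fold as before. Of all members tested, 16 of 33 turned from higher to lower in 8-AG against aged and 18 of 33 in 8-AG against young without 8-AG library 1. Among the named members with every alternative computed, log2 fold changes that turned sign ran from Myh8 -0.80 to 4.37, Actc1 -0.75 to 4.27, Actn3 -4.9 to 4.54, Mybpc2 -4.74 to 4.45 and Myoz1 -3.99 to 3.49 in aged against young RPE/choroid, Ckm -0.00562 to 8.97 in 8-AG against aged, Myh8 -0.17 to 8.26 in 8-AG against young, and Mylpf -0.13 to 1.4, Myh1/Myh4 -4.09e-05 to 1.08 and Mybpc2 -0.59 to 0.19 in retina 8-AG against aged.

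The log2 fast to slow ratio of young library 2 was 7.88 as a difference of medians and 8.68 from genes of the same protein, that of aged library 1 was 8.0 from genes of the same protein, and that of 8-AG library 3 turned to 0.33 and 0.49. Depth limits the retina most, where many members had few counts or none, and with 3 libraries a group, of which 1 can set a median, fold changes of muscle genes in RPE/choroid describe these libraries.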
